A study of Mus musculus with 10 samples.

Results

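Growth arrest genes and targets of the tumour suppressor p53 were followed in the gastrocnemius, a calf muscle, of adult mice. Mstn, the myostatin gene, was targeted for deletion in the knockout group and not in the control group. The set comprises 7 genes, Cdkn1a, Cdkn1c, Gadd45a, Ccng1, Mdm2, Sesn1 and Ddit4, of the 18194 genes that the array annotation names through a probe set of their own. All 15 probe sets annotated to 1 of these symbols alone were taken, of 45101 on the array. The Mstn knockout group held 5 male mice aged 7.5 months with floxed Mstn genes, which Cre recombinase can delete, and the CAGG-CreER transgene, which tamoxifen activates. The control group held 5 male mice of the same age with normal Mstn genes and the same transgene. Both groups were on a C57BL/6 background, and every animal received 8 tamoxifen injections from 4 months of age, so tamoxifen and the active recombinase are shared by knockouts and controls. The CAGG promoter is known to be active in most tissues, and where the gene was deleted was not measured here. The 7 genes were chosen with the knockout and control values in view, and their differences between the groups are therefore a description without a test.

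Background on these genes is as follows. p53 is a transcription factor that damage and other stresses stabilise, and its targets stop the cell cycle, slow growth signalling or lead to cell death. Cdkn1a encodes p21 and Cdkn1c encodes p57, inhibitors of the cyclin-dependent kinases (CDKs) that drive division. Both are also known from the cell cycle exit of muscle precursor cells. Gadd45a, a small nuclear stress adaptor, is known as a gene that muscle induces after loss of its nerve. Ccng1 (cyclin G) and Mdm2, the ubiquitin ligase that marks p53 for degradation, are p53 targets that feed back on p53. Sesn1 (a sestrin) and Ddit4 (also called Redd1) restrain mTORC1, the kinase complex that promotes protein synthesis, and Ddit4 is also a target of the glucocorticoid receptor.

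The bases upstream of 4 members are shown to place matches to motifs of p53, FoxO and octamer-binding factors, which were picked after the windows had been read. The sequences are RefSeq windows of 250 bases before an annotated transcript start in build GRCm38.p6, and windows were found for 6 of the 7 members (not Cdkn1c). Cdkn1a has 2 annotated starts 2790 bases apart, and the upstream one is shown.
Cdkn1a, chr17:29090729-29090978, plus strand: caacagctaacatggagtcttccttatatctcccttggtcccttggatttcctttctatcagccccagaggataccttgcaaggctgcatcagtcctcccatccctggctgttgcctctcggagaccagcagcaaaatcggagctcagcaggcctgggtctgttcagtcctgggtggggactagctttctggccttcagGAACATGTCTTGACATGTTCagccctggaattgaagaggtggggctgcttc
Ccng1, chr11:40755287-40755536, minus strand: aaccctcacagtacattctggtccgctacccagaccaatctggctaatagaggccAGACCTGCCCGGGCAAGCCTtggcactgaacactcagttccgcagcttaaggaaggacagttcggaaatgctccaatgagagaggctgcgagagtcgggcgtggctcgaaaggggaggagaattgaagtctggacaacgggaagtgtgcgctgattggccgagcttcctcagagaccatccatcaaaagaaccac
Gadd45a, chr6:67037408-67037657, minus strand: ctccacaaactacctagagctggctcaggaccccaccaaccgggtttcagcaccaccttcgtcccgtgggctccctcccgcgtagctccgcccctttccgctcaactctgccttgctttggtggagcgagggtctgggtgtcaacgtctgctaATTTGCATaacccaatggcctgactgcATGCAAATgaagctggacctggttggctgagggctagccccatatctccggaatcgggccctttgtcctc
Mdm2, chr10:117710759-117711008, minus strand: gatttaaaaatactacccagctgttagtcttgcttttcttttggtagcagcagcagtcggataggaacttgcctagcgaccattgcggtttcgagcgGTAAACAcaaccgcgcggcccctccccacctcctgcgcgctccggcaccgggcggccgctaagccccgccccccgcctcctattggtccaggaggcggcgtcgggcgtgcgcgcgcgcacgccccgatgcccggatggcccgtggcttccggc
In Cdkn1a and Ccng1 the capitals mark 20 bases that match the p53 consensus, a pair of abutting half-sites, with 1 mismatch each. The match lay 51 to 32 bases before the upstream Cdkn1a start and 195 to 176 bases before the Ccng1 start. Such a match with 1 mismatch or fewer occurred in 25 of all 32851 windows of this length, or 0.0761%. In Gadd45a the capitals mark the octamer ATTTGCAT on one strand and its reverse complement further on, and 1.60% of all windows held this octamer on either strand. In Mdm2 they mark the FoxO core GTAAACA, which 3.17% of windows held on either strand. No marked match overlapped a match to another motif searched. The Smad palindrome GTCTAGAC and the ATF4 composite letters TGATGCAA, searched on both strands, were not in the 8 member windows, and 0.167% and 0.792% of all windows held them. The short letters CCAAT and GGGCGG were searched on both strands too, and 33.9% and 32.7% of all windows held them. These matches are letters in a sequence and not measured binding.

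Levels are given as log2 of the deposited array intensity, and each fitted difference is knockout minus control on that scale. On these arrays 14 of the 15 member probe sets had a mean of 4 or more and were kept, and 1 dim Mdm2 probe set was not. Over all 21154 probe sets kept, 21 (0.0993%) passed an adjusted p of 0.05 (limma, Benjamini-Hochberg), and 436 (2.06%) had groups that did not overlap. None of the 14 member probe sets passed by limma, while 3 lay at an unadjusted p under 0.05, as did 7.69% of all probe sets kept. Of all probe sets kept, 0.052% passed as higher and 0.0473% as lower in knockouts. For 2 of the 14, both higher in knockouts, the groups did not overlap, while 1.17% of all probe sets kept were higher and 0.893% lower without overlap. Nothing is read from these counts, since the genes were chosen on this contrast. By the brightest probe set of each gene, 5 members had higher and 2 had lower means in knockouts, with a median difference of 0.15, beside -0.0049 over all 10704 genes measured. All 12 listed skeletal muscle fibre genes, such as Acta1 and Ckm, were measured, with a median level of 15.07. Mstn itself was not analysed here, so the deletion has no check from its own transcript. Each label describes 1 male, taken here as 1 mouse per array, and p-values measure only the spread between these samples.

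**Figure D1:**
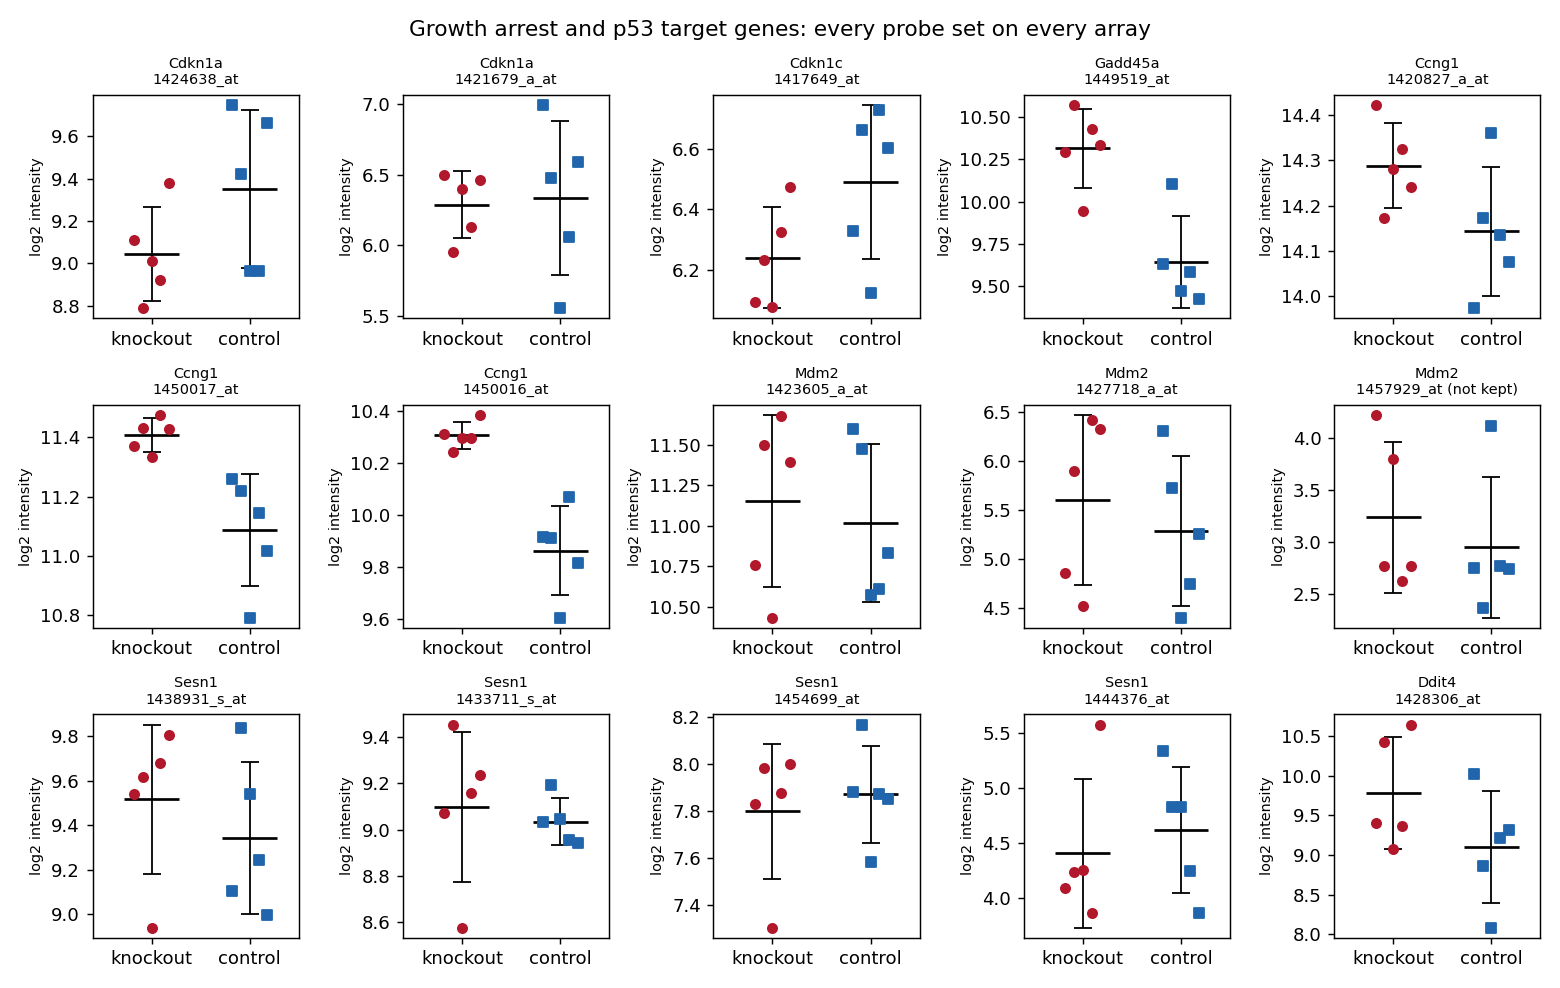
Log2 intensity of each of the 15 member probe sets on each array, with knockouts (circles) left of controls (squares), the group mean as a thick line and the SD as whiskers (n = 5 each); the vertical axes differ between panels. The groups are apart for Ccng1 1450017_at and 1450016_at and overlap by 1 array for Gadd45a, while Mdm2 and Sesn1 spread widely within both groups.

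Gadd45a had a higher mean in knockouts, on its only probe set. It read 10.29, 10.57, 9.95, 10.43 and 10.33 in knockouts 1 to 5, and 9.63, 10.10, 9.47, 9.59 and 9.43 in controls 1 to 5. Of the knockouts 4 lay above every control, and knockout 3 lay below control 2, the highest control. The means were 10.32 ± 0.23 in knockouts and 9.64 ± 0.27 in controls (SD, n = 5 each), a difference of 0.67 ± 0.15 (SE), or 1.59-fold. Leaving out 1 array at a time gave 0.61 to 0.79.

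The relatives of Gadd45a did not share 1 direction. Gadd45g, another stress-induced member of the family, read 10.44, 10.72, 10.53, 10.85 and 10.82 in knockouts, against 10.37, 9.68, 8.71, 9.97 and 10.16 in controls. Every knockout lay above every control, but the difference of 0.89 ± 0.28 (SE) did not pass (limma adjusted p = 0.468). Gadd45b averaged 9.10 ± 0.44 in knockouts and 9.48 ± 0.52 in controls (SD, n = 5 each), a difference of -0.38 (adjusted p = 0.85), with -0.37 and -0.30 on 2 further probe sets. The list of other Gadd45 proteins and CDK inhibitors held 7 measured genes of 9, with 3 higher, 4 lower, none past the threshold, 1 at an unadjusted p under 0.05 and a median of -0.0058. Cdkn2d, a CDK4 and CDK6 inhibitor, differed by 0.14 (adjusted p = 0.879).

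The CDK inhibitors among the members, Cdkn1a and Cdkn1c, had lower means in knockouts. The brighter Cdkn1a probe set (1424638_at) read 9.11, 8.79, 9.01, 8.92 and 9.38 in knockouts, against 9.75, 9.42, 8.96, 8.96 and 9.66 in controls. Knockouts 2 and 4 lay below every control, and controls 3 and 4 lay within the knockout range. The means of 9.04 ± 0.22 in knockouts and 9.35 ± 0.37 in controls (SD, n = 5 each) differed by -0.31 ± 0.18 (SE). The dimmer Cdkn1a probe set (1421679_a_at) averaged 6.29 ± 0.24 in knockouts and 6.34 ± 0.55 in controls, a difference of -0.05 ± 0.25 (SE), and turned positive without knockout 2 (0.04), control 1 (0.12) or control 5 (0.02). The pair tracked each other from mouse to mouse, with r (Pearson) of 0.898 and rho (Spearman) of 0.903 between deviations from the group means over 10 arrays, and r of 0.878 without the 2 arrays farthest from the median. The exact permutation p values within groups were 0.000833 and 0.00396, and that of r was 0.0054 adjusted over 13 pairs of probe sets.

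Cdkn1c, which is imprinted and expressed from the maternal chromosome, read 6.09, 6.23, 6.08, 6.33 and 6.47 in knockouts, against 6.33, 6.66, 6.13, 6.73 and 6.60 in controls. Knockouts 1 and 3 lay below every control and the groups overlapped. The difference was -0.25 ± 0.13 (SE), between -0.34 and -0.19 with each array left out. Genes of its imprinted domain and of the imprinted growth network around it were measured for 17 of 23 listed, with 5 higher, 12 lower, none past the threshold (3 at an unadjusted p under 0.05) and a median of -0.10. Kcnq1, Phlda2, Slc22a18 and Ascl2 of the domain and Dlk1 of the network lay under the filter level. The counts are therefore not those of the domain alone. Plagl1, a zinc finger regulator of that network, differed by -0.55 ± 0.14 (adjusted p = 0.301). Meg3, a maternally expressed noncoding RNA, differed by -0.79 ± 0.25 (adjusted p = 0.469), with groups apart and -0.69, -0.52 and -0.32 on 3 further probe sets. Peg3, a paternally expressed zinc finger gene, differed by -0.49 (adjusted p = 0.628).

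Ccng1 was read by 3 probe sets. 1450016_at read 10.31, 10.24, 10.29, 10.29 and 10.38 in knockouts, against 9.91, 9.91, 9.60, 10.07 and 9.81 in controls. 1450017_at read 11.37, 11.43, 11.33, 11.48 and 11.43 in knockouts, against 11.26, 11.22, 10.79, 11.14 and 11.01 in controls. On both, every knockout lay above every control, and the knockouts lay close together. The differences were 0.44 ± 0.09 (SE, 1.36-fold) and 0.32 ± 0.09 (SE, 1.25-fold).

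The brightest Ccng1 probe set (1420827_a_at) read 14.42, 14.17, 14.28, 14.33 and 14.24 in knockouts, against 13.97, 14.17, 14.36, 14.13 and 14.07 in controls. Here the groups overlapped, with control 3 above 4 knockouts, and the difference was 0.15 ± 0.09 (SE). The arrays' highest values lay between 16.01 and 16.07. Whether compression near the top of the scale affects this probe set was not tested. Control 3 was the highest control on this probe set and the lowest on both others. The deviations of 1420827_a_at and 1450017_at from the group means had r of -0.673 and rho of -0.382 (exact permutation p = 0.0909 and 0.338, n = 10), and r of 0.088 without the 2 farthest arrays, so the negative r rests on those arrays. The mean of the 3 probe sets differed by 0.30.

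Mdm2 varied more within the groups than between them. Its brightest probe set read 10.76, 11.50, 10.43, 11.68 and 11.39 in knockouts, against 11.60, 11.47, 10.57, 10.61 and 10.83 in controls. High and low arrays occurred in both groups, and the difference was 0.14 ± 0.29 (SE), with 0.0056 without knockout 4 and 0.32 without knockout 3. A dimmer probe set, 1427718_a_at, averaged 5.61 ± 0.87 in knockouts and 5.29 ± 0.76 in controls (SD, n = 5 each), a difference of 0.32 ± 0.47 (SE), and followed the first (r = 0.962, rho = 0.952, exact permutation p = 0.000347 for each, 0.0045 adjusted for r, n = 10, r = 0.938 without the 2 farthest arrays). The probe set that was not kept, 1457929_at, averaged 3.24 ± 0.73 in knockouts and 2.95 ± 0.68 in controls (SD, n = 5 each), near the floor of the scale, and read above 3.8 in knockouts 1 and 3 and control 3 alone. With control 4, those were the 4 lowest arrays on both other Mdm2 probe sets.

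p53 itself was not analysed here, and those of its regulators and other targets that were measured gave no common direction. Of 18 listed regulators 14 were measured, with 5 higher, 9 lower, none past the threshold by limma and 2 at an unadjusted p under 0.05, beside 0.131% and 8.9% of all genes. Mdm4, the partner of Mdm2 in restraining p53, read 8.65, 8.83, 8.60, 8.96 and 8.85 in knockouts, against 9.14, 9.26, 9.12, 9.09 and 8.96 in controls. Its difference was -0.34 ± 0.09 (SE, adjusted p = 0.348), while its other probe set gave -0.06. Hipk2, a kinase that phosphorylates p53, averaged 12.86 ± 0.07 in knockouts and 12.62 ± 0.13 in controls (SD, n = 5 each, difference 0.24, adjusted p = 0.483). The 6 remaining Hipk2 probe sets had differences of 0.19 to 0.46. Trp63, a p53 relative, differed by -0.23 (adjusted p = 0.824), and by 0.27 on a dimmer probe set.

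Among p53 targets outside the members, 23 of 35 listed genes were measured, with 10 higher, 13 lower, none past the threshold, 1 at an unadjusted p under 0.05 and a median of -0.02. Bbc3, Pmaip1, Plk3, Tnfrsf10b, Gtse1, Ckap2, Pidd1, Rprm and Sfn lay under the filter level. Bax had no probe set annotated to it alone. Polk, a DNA polymerase that copies past lesions, differed by 0.59 ± 0.18 (SE, adjusted p = 0.469). Rrm2b, a p53-induced subunit of ribonucleotide reductase, differed by 0.14 (adjusted p = 0.782). Perp, a membrane protein and p53 target, differed by -0.72 ± 0.46 (adjusted p = 0.799). No target in this list had groups that did not overlap, beside 2.63% of all genes.

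The cell cycle genes that the CDK inhibitors act on gave no call. Of 27 listed cyclins, CDKs, Rb and E2F genes and replication genes 18 were measured, with 7 higher, 11 lower, none past the threshold (1 at an unadjusted p under 0.05) and a median of -0.04. E2f3, a transcription factor of the Rb pathway, differed by 0.23 ± 0.07 (adjusted p = 0.469). The D-type cyclins Ccnd2 and Ccnd1 differed by -0.35 (adjusted p = 0.694) and -0.27 (adjusted p = 0.749) on their brightest probe sets. On 5 dimmer Ccnd2 probe sets the differences ran between -0.66 (adjusted p = 0.332) and 0.08. Ccne1, Ccna2, Ccnb2, Cdk2, Cdk6, E2f1, E2f2 and Mcm5 lay under the filter level.

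Ddit4 had the largest mean difference and the widest spread of the 7 members by their brightest probe sets. It read 9.40, 10.42, 9.08, 9.36 and 10.64 in knockouts, against 10.02, 8.86, 8.09, 9.21 and 9.31 in controls. Knockouts 2 and 5 lay above every control, and the other knockouts lay among the controls. The means of 9.78 ± 0.70 in knockouts and 9.10 ± 0.71 in controls (SD, n = 5 each) differed by 0.68 ± 0.40 (SE), between 0.43 without control 3 and 0.91 without control 1.

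The 4 Sesn1 probe sets differed in sign. The brightest, 1438931_s_at, read 9.54, 9.62, 8.94, 9.68 and 9.80 in knockouts, against 9.11, 9.83, 9.54, 9.25 and 9.00 in controls, a difference of 0.17 ± 0.20 (SE). Knockout 3 was the lowest array and control 2 the highest. The next, 1433711_s_at and 1454699_at, gave 0.07 ± 0.15 and -0.07 ± 0.15 (SE), and the dimmest, 1444376_at, gave -0.21 ± 0.36. Each of the 4 differences was smaller than the SD among knockouts, and the mean of the 4 probe sets differed by -0.01.

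Other sestrins, Redd proteins and restraints of mTORC1 were measured for all 19 listed genes, with 14 higher, 5 lower, none past the threshold, 3 at an unadjusted p under 0.05 and a median of 0.07. Sesn3, the sestrin that FoxO factors induce, had a lower mean in knockouts and read 8.06, 8.13, 7.87, 8.00 and 8.08 in knockouts, against 8.55, 8.27, 8.46, 8.19 and 8.48 in controls. Its groups did not overlap, and its difference of -0.36 ± 0.09 (SE) did not pass (adjusted p = 0.301). Fnip1, a partner of folliculin in nutrient sensing, differed by -0.15 (adjusted p = 0.607). Deptor, an inhibitory subunit bound to mTOR, differed by 0.21 (adjusted p = 0.642). The 4 remaining Deptor probe sets had differences of 0.23 to 0.40.

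**Figure D2:**
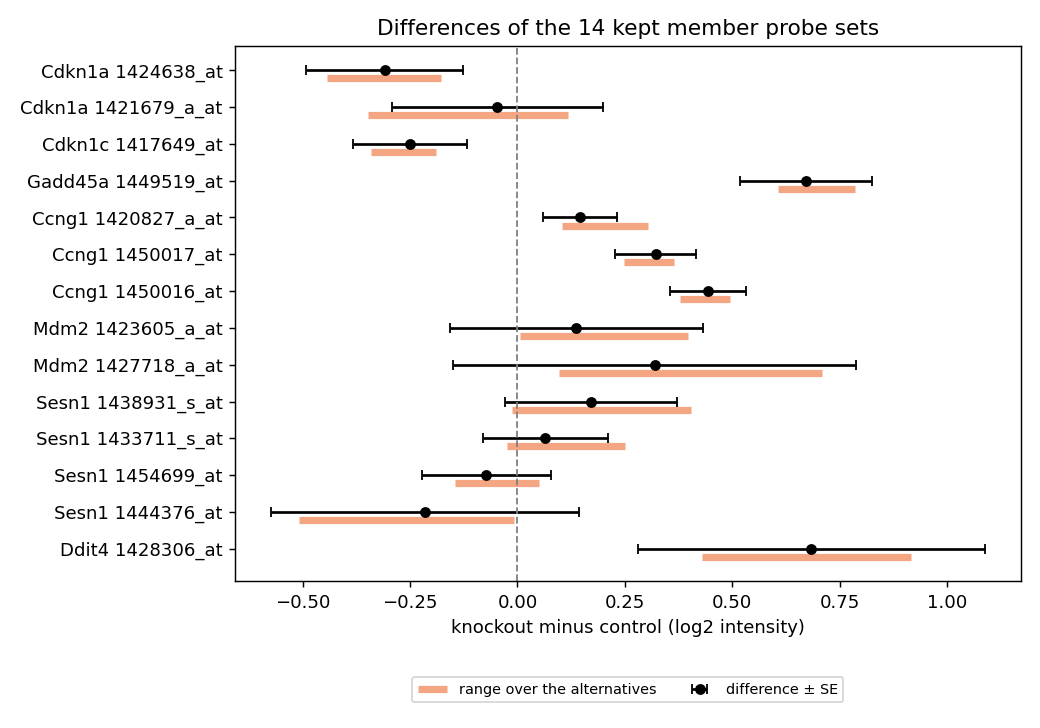
Knockout minus control difference in log2 intensity of the 14 kept member probe sets (points, with SE from the fit over all probe sets as whiskers), and below each the range of that difference over the processing alternatives (bars). Gadd45a and all 3 Ccng1 probe sets stay above 0 and Cdkn1c and the brighter Cdkn1a probe set stay below 0. The bars of the dimmer Cdkn1a and 3 Sesn1 probe sets reach both sides. For the brightest probe set of each gene the bar also includes the mean of all its probe sets. Only that mean (-0.01) takes the bar of Sesn1 1438931_s_at below 0.

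A technical measure that the choice of genes did not use is the level of 7 probe sets for bacterial RNA added to each array before hybridisation. These controls averaged 13.15 ± 0.25 in knockouts and 13.12 ± 0.14 in controls (log2, SD, n = 5 each). They were highest on knockouts 3 and 1 and control 3. Mdm2 was low where they were high, with r of -0.813 and rho of -0.758 over 10 arrays (permutation p = 0.0033 and 0.0151, or 0.023 and 0.106 adjusted over the 7 members). Without the 2 arrays farthest from the median r was -0.729, and within the 7 arrays of lower controls it was -0.563. As deviations from the group means, r was -0.839 for Mdm2 and -0.807 for Ddit4 (exact permutation within groups, adjusted p = 0.034 and 0.0382), and -0.703 and -0.662 without the 2 farthest arrays. For the other 5 members the adjusted p of this r lay between 0.0794 and 0.231. With the controls as a covariate the Mdm2 difference was 0.21 ± 0.17 (SE) on its brightest probe set and 0.44 ± 0.20 on the dimmer 1427718_a_at. That of Ddit4 was 0.78 ± 0.25 and that of Gadd45a 0.70 ± 0.13.

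**Figure D3:**
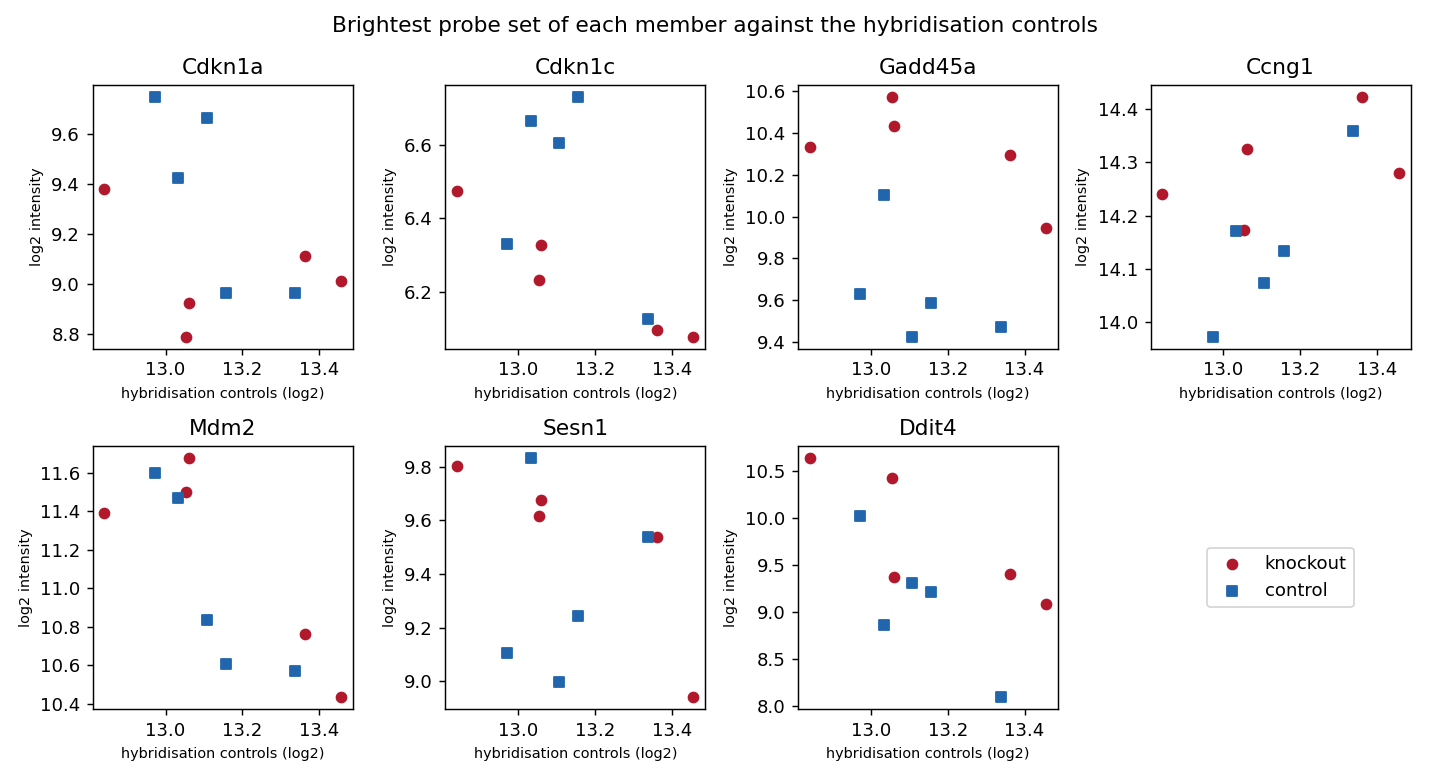
Log2 intensity of the brightest probe set of each member (vertical axis) against the mean log2 intensity of the 7 hybridisation control probe sets (horizontal axis), for knockouts (circles) and controls (squares), 1 point per array. Mdm2 and Ddit4 fall towards the right in both groups, and Gadd45a knockouts lie above controls at like levels of the hybridisation controls.

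The members did not vary together from mouse to mouse as 1 block. Over the 21 pairs of members, r between deviations from the group means ran from -0.847 to 0.788 with a median of 0.283, and 14 pairs were positive. None passed after adjustment over the 21 pairs. Gadd45a went with Sesn1 at r of 0.788 and rho of 0.709 (exact permutation p = 0.0231 and 0.0346, adjusted 0.161 and 0.242), but at 0.432 without the 2 farthest arrays. Gadd45a went with Mdm2 at r of 0.751 and rho of 0.770 (exact permutation p = 0.0122 and 0.0154, adjusted 0.128 and 0.162), and at 0.647 without them. Ccng1, by its brightest probe set, opposed Ddit4 at r of -0.847 and rho of -0.879 (exact permutation p = 0.0071 and 0.0045, adjusted 0.128 and 0.0948), and at -0.685 without them. Cdkn1a and Gadd45a had r of -0.022 and rho of 0.127 (exact permutation p = 0.969 and 0.761).

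**Figure D4:**
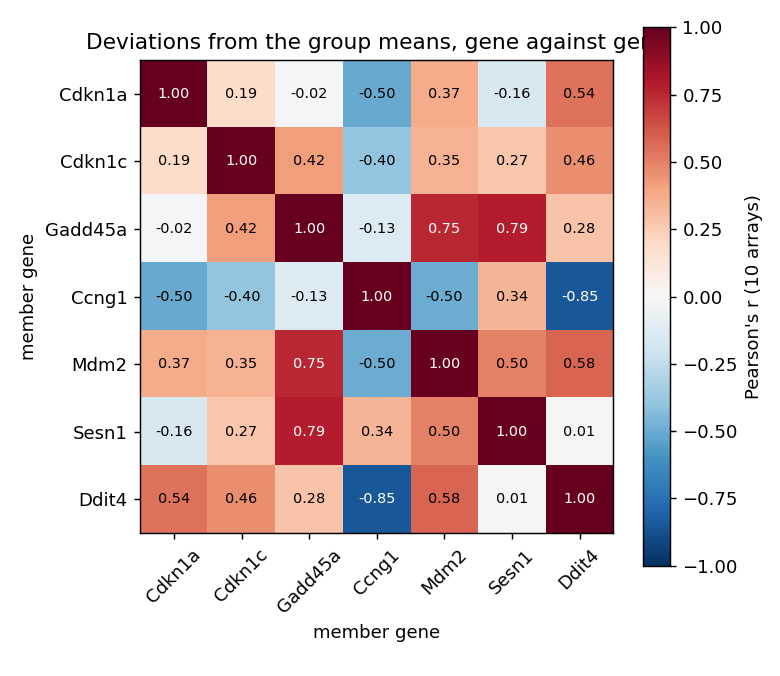
Pearson's r between the brightest probe sets of the 7 members, computed over 10 arrays from deviations from the group means, with members on both axes and r as colour and number. Values run from -0.85 for Ccng1 with Ddit4 to 0.79 for Gadd45a with Sesn1.

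Most like the deviations of Gadd45a over 10 arrays were those of Tmem243 (r = 0.977, rho = 0.988), Elovl6 (0.948 and 0.927) and Ddx17 (0.945 and 0.891). Plekha5 (0.943 and 0.952) and Asb7 (0.943 and 0.818) came next. The ranking started from 10703 genes, and symbols of clones and predicted genes were left out of it and of the counts given here. These likenesses are given as a description, and 20 genes reached an r of 0.9 with Gadd45a. Between the groups these 5 differed by -0.26 to 0.20. For Cdkn1a the 5 highest were Tmem88 (r = 0.953, rho = 0.891), Psme1 (0.924 and 0.976), Gtf2f2 (0.918 and 0.915), Fzd1 (0.917 and 0.939) and Dcun1d3 (0.908 and 0.867), and 9 genes reached 0.9. The points share their arrays and hybridisation level, and the deviations of these 10 genes had r of -0.648 to -0.323 with the hybridisation controls.

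Pathways known to induce some of these members were described through lists of their other targets. Glucocorticoid receptor targets were measured for 16 of 17 listed genes, with 10 higher, 6 lower, none past the threshold, 2 at an unadjusted p under 0.05 and a median of 0.07. Glul, glutamine synthetase, differed by 0.24 ± 0.07 (adjusted p = 0.399), and its other probe set by 0.47. Tsc22d3, a glucocorticoid-induced leucine zipper protein, differed by 0.28 (adjusted p = 0.635) and Sgk1, a growth factor-responsive kinase, by 0.12 (adjusted p = 0.749).

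Genes of the transcription factor ATF4, which is known to induce Gadd45a in muscle, were measured for 16 of 18 listed, with 8 higher, 8 lower, none past the threshold, 2 at an unadjusted p under 0.05 and a median of 0.04. Mthfd2, a mitochondrial folate enzyme, differed by 0.52 ± 0.22 (adjusted p = 0.606). Nupr1, a stress-induced nuclear protein, differed by -0.45 (adjusted p = 0.515), and Vldlr, a lipoprotein receptor, by 0.24 (adjusted p = 0.652), with 0.21 to 0.50 on 5 dimmer probe sets.

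Denervation and FoxO atrophy genes were measured for 20 of 22 listed, with 12 higher, 8 lower, none past the threshold, 2 at an unadjusted p under 0.05 and a median of 0.08. Fbxo32 (atrogin-1), a ubiquitin ligase of atrophy, read 12.42, 12.43, 12.18, 12.33 and 11.95 in knockouts, against 11.73, 11.73, 11.87, 11.74 and 11.87 in controls. Its groups did not overlap, and the difference of 0.47 ± 0.10 (SE) had a limma adjusted p of 0.195. By brightest probe sets this was the lowest of all 145 genes measured in the 9 pathway lists. Dimmer Fbxo32 probe sets differed by 0.70 (limma adjusted p = 0.173) and 0.31 (limma adjusted p = 0.678). Trim63 (MuRF1), the other classical ligase of atrophy, differed by 0.28 ± 0.09 (adjusted p = 0.469), and Foxo4 by -0.12 (adjusted p = 0.816). Chrng and Chrnd, acetylcholine receptor subunits that denervated muscle expresses, lay under the filter level.

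Over those 9 lists together 72 genes were higher and 73 lower, none passed by limma, 17 lay at an unadjusted p under 0.05 (11.7%, beside 8.9% of all genes) and 7 had groups that did not overlap (4.83%, beside 2.63%). Those 7 genes were Mdm4, Hipk2, Gadd45g, Sesn3, Fnip1, Fbxo32 and Meg3.

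**Figure D5:**
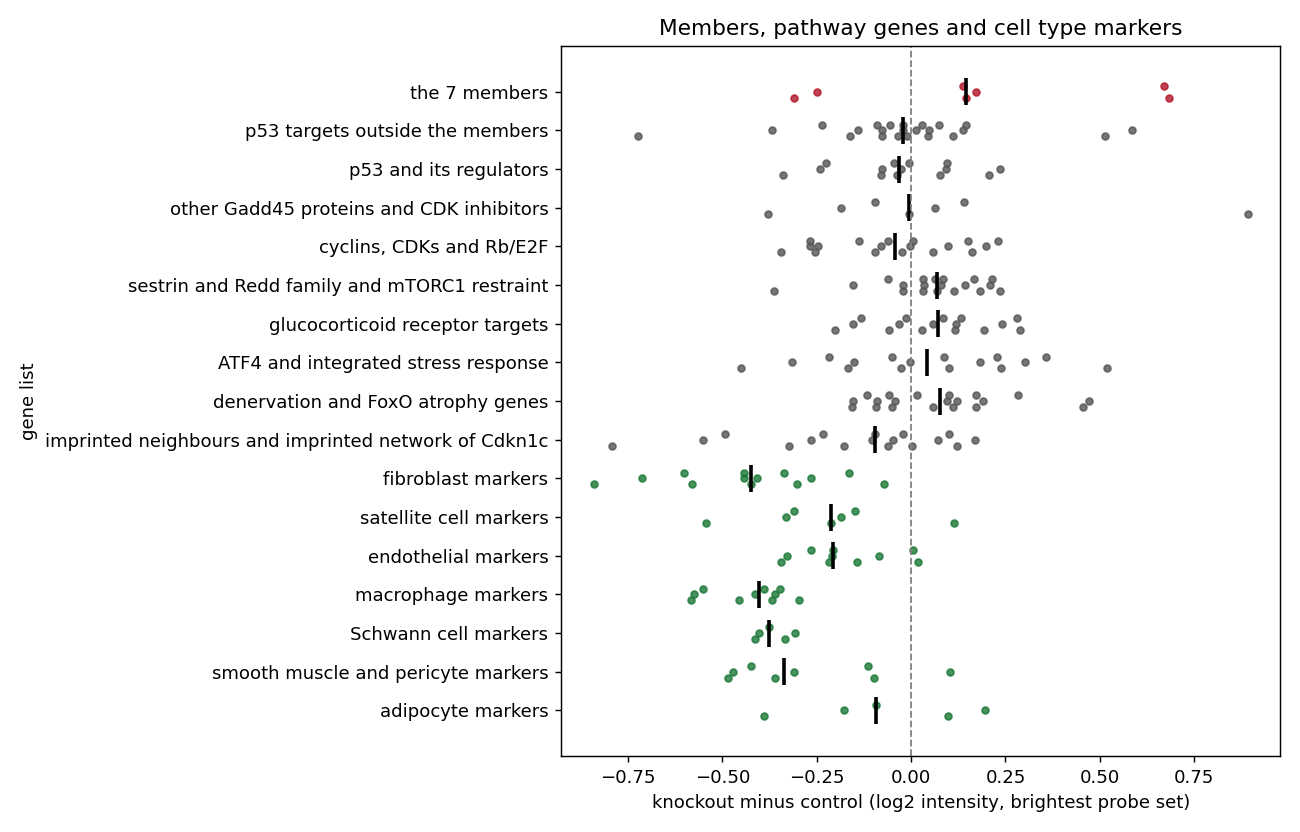
Knockout minus control difference in log2 intensity of the brightest probe set of each gene (points), with 1 row per list and the list median as a vertical bar, for the 7 members at the top, the 9 pathway lists below them and 7 lists of other cell types at the bottom. Pathway list medians lie between -0.10 and 0.08, and the medians of the cell type lists lie between -0.42 and -0.09.

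Of 58 measured markers of 7 other cell types 52 had lower and 6 higher means in knockouts, while 48.5% of all genes were higher. In whole muscle the number of cells of a type, the RNA per cell and their share of all RNA cannot be told apart. By the brightest probe set of each gene, 17 of the 58 lay at an unadjusted p under 0.05 by limma (29.3%, beside 8.9% of all genes). For 6 the groups did not overlap (10.3%, beside 2.63% of all genes). Fibroblast markers were lower for 13 of 13 measured genes, with a median of -0.42 and a summed intensity of 32028 to 43200 in knockouts and 44842 to 52564 in controls. Col1a2, a chain of type I collagen, fell by 0.84 ± 0.12 (SE, adjusted p = 0.0493), the 1 call in these lists by brightest probe sets, and that probe set lost it with any array but knockout 5 left out (limma adjusted p between 0.098 and 0.161). A dimmer Col1a2 probe set fell by 1.15 ± 0.13 (SE, limma adjusted p = 0.0264). Col1a1, the other chain of type I collagen, fell by 1.12 ± 0.12 on its dimmer probe set (SE, limma adjusted p = 0.0264), while its brightest gave -0.71 (adjusted p = 0.104). Col3a1 did not pass (-0.41, adjusted p = 0.376, and -0.12 on a dimmer probe set).

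Satellite cell markers, of the muscle stem cells in which Cdkn1a and Cdkn1c are known to act, were lower for 6 of 7 measured genes, with a median of -0.21 and a summed intensity of 4491 to 5910 in knockouts and 5424 to 7261 in controls. Pax7, their defining factor, differed by -0.31 (adjusted p = 0.69), Chodl by -0.54 (adjusted p = 0.256) and Vcam1 by -0.33 (adjusted p = 0.693), and Calcr lay under the filter level. The sum of each marker list also includes its genes under the filter level, such as Calcr here, while counts and medians do not. Endothelial markers were lower for 8 of 10 genes (median -0.21, Tek -0.27, Ramp2 -0.33, Vwf -0.34), with sums of 4147 to 4609 in knockouts and 4676 to 5680 in controls. Smooth muscle and pericyte markers were lower for 7 of 8 (median -0.34, Myh11 -0.49, Tagln -0.47, Notch3 -0.36), with sums of 25886 to 32527 in knockouts and 26545 to 31048 in controls.

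Macrophage markers were lower for 10 of 10 genes (median -0.40, Csf1r -0.37, Fcer1g -0.46, Laptm5 -0.41), none at an unadjusted p under 0.05 by limma. Their sums were 6322 to 11763 in knockouts and 9109 to 13419 in controls. On dimmer probe sets Csf1r gave -0.35 and -0.20, and Laptm5 gave -0.07 and 0.24. Schwann cell markers were lower for 5 of 5 (median -0.38, Cnp -0.33, Pmp22 -0.31, Sox10 -0.40), and a dimmer Cnp probe set gave -0.15. Their sums were 6097 to 9695 in knockouts and 7115 to 10974 in controls, and Mag lay under the filter level. Adipocyte markers were lower for 3 of 5 (median -0.09, Pparg -0.39, Fabp4 -0.09, Retn 0.20), and dimmer Fabp4 probe sets gave -0.09 and 0.05. Their sums were 15631 to 20769 in knockouts and 17211 to 19854 in controls, and Lep lay under the filter level. Fabp4, with a mean log2 of 14.06, makes up most of these adipocyte sums. The part of these cells in any member's difference was not tested. The difference between the 3' and 5' probe sets of Gapdh, a measure of RNA integrity, was 0.45 ± 0.03 in knockouts and 0.49 ± 0.03 in controls (SD, n = 5 each, exact permutation p = 0.0317, not adjusted). For actin it was 1.40 ± 0.05 in knockouts and 1.47 ± 0.06 in controls (SD, n = 5 each, exact permutation p = 0.0873, not adjusted). The part of RNA integrity in any member's value was not tested.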

How the data were processed

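Gastrocnemius RNA was labelled as biotinylated cDNA with NuGEN kits and hybridised to arrays, per the labels' protocols. The deposited values are linear intensities that the authors made with GCRMA, per the submitters' processing notes. No source used here gives its version or options. GCRMA compresses dim probe sets near a floor. Log2 was taken here with no other normalization. Arrays have no read depth, so their number limits precision.

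Genes were assigned through the array platform's annotation table (34958 with 1 symbol, 932 with several and not used, 9211 without). Probe sets with a mean log2 of 4 or more were kept, and 64 control probe sets left out, which left 21154, covering 10704 named genes. The 2 groups entered a fit with limma 3.58.1 (lmFit, eBayes, two-sided; R 4.3.3) with Benjamini-Hochberg adjustment over all of them and a threshold of 0.05. The fit was tested on simulated data. The brightest probe set represents a gene. Correlations used 100000 resamples, or all 14400 permutations within groups. Array correlations ran from 0.944 to 0.991, and no 2 arrays were identical. Figures used matplotlib 3.10.9.

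The members and lists were chosen with earlier results of these data known, and the motifs after the windows were read. Named genes are all members, up to 3 genes of lowest p and every called gene per list. The 5 genes most like Gadd45a and Cdkn1a are named too, with symbols of clones and predicted genes left out. Alternatives covered filter, floor, normalization, variance model, array weights, replicate block, hybridisation covariate, probe set choice and each array left out.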

Additional observations from a re-analysis of the deposited data

Results flagged for a closer look

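Of 132 groups of 5 arrays examined (members' probe sets and named genes), 8 held an array far from the other 4. By chance about 1 in 20 would, here 6.6. Among the members, knockout 5 read 5.58 on the dim Sesn1 probe set 1444376_at, against 3.87 to 4.26 in the other knockouts. Knockout 3 read 7.31 on Sesn1 1454699_at, against 7.83 to 8.00 in the other knockouts. Control 3 read 4.12 on the Mdm2 probe set that was not kept, against 2.36 to 2.76 in the other controls. Among the other genes, knockout 2 was low for Fnip1 (12.32, others 12.46 to 12.50) and Glul (13.95, others 14.05 to 14.06). Control 2 was high for Meg3 (8.71, others 8.26 to 8.35), control 5 was low for Pmp22 (12.25, others 12.58 to 12.70) and control 3 was low for Pparg (4.82, others 5.80 to 6.02).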

How the results depend on the processing

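The removal of the 3 arrays of highest hybridisation controls was chosen after seeing the data. No member probe set passed the threshold under any alternative run. The 21 probe sets past the threshold became 11 when dim probe sets were kept too, 36 after quantile normalization, 58 with a variance trend and robust fit, 67 with array weights and 99 with the hybridisation controls as a covariate. Without those 3 arrays there were 5, and with each array left out 1 to 17. With the replicate number as a block 1 call remained. Between arrays of 1 number, deviations from the group means had r of -0.51, 0.13, 0.62, -0.20 and 0.19, and 2 of 10 arrays matched their own number best, so the numbers are not taken as pairs. The 1 call among listed genes by brightest probe sets became 0 with no filter, with the replicate block and without the 3 arrays, 2 with the variance trend or with the mean of probe sets per gene, and 0 to 1 with each array left out. Among the members' differences, that of the brightest Ccng1 probe set moved to 0.3035 with the mean of its probe sets. The dimmer Cdkn1a probe set and Sesn1 1454699_at each changed sign under 3 of 20 alternatives. Sesn1 1433711_s_at and 1438931_s_at each did so under 1. The brightest Mdm2 probe set kept its sign but ran from 0.0056 to 0.397. No called value changed direction, but no member was called. Signal over background limits the dim Mdm2 and Sesn1 probe sets. The causes of these changes were not tested.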
